A study of Mus musculus with 12 samples.

Results

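The 42 cytosolic ribosomal protein genes of this liver data set, 24 of the large and 18 of the small ribosomal subunit, were examined among the 10607 genes for which both messenger RNA abundance and ribosome footprints were tabulated. They were chosen by name: gene symbols beginning Rpl or Rps and followed by a number, with Rpsa, Rplp0, Rplp1 and Rplp2, and without the S6 kinases and the genes named as pseudogenes. The livers came from 6 mice, 3 wild type (WT) and 3 lacking Mettl5 (KO). The paper describes the WT mice as littermate controls. The mouse number was taken as the litter number, with 1 mouse of each genotype in each of 3 litters. The KO mice carried a deletion of a floxed exon of Mettl5 in the whole body, made by crossing the floxed line to a CMV-cre line, and the floxed line came from F1 hybrid stem cells of C57bl/6 and 129S6 that were backcrossed to B6. All livers were frozen and lysed with cycloheximide, which halts ribosomes on the message, so WT and KO lysates alike held it. Neither the ages nor the sexes of these 6 mice are given in the labels used here. Every lysate gave 1 input library, which measures transcript abundance, and 1 library of ribosome-protected fragments (RPF), which are the short pieces of message that a ribosome shields from nuclease.

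Ribosomal proteins coat the ribosomal RNA of both subunits: the small subunit holds the decoding centre, where codons are read, and the large subunit forms peptide bonds and threads the new chain through an exit tunnel. METTL5 adds a methyl group to an adenine of the small subunit's 18S rRNA near the decoding centre. Most ribosomal protein messages begin with a run of pyrimidines (the 5′ terminal oligopyrimidine, or TOP, tract), through which mTORC1 and LARP1 control their translation. Ribosomal protein genes are also known for having left many processed pseudogenes, copies of the spliced message scattered over the genome.

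The values below are reads divided by a size factor of the library. In 100% of cases they came to a whole number of reads, within 0.01 reads, so the reads behind each value are known. The 10607 genes held 2398804 to 5121304 reads in an input library and 4623826 to 9184242 in an RPF library. Members took 0.232% to 0.332% of the input reads and 0.0822% to 0.114% of the RPF reads. The targeted gene went with the labels: Mettl5 had 67, 56 and 103 RPF reads in WT mice 1, 2 and 3 and 12, 9 and 10 in KO mice 1, 2 and 3. The liver was also as labelled, since the 6 hepatocyte markers summed to 80304 to 100585 CPM (counts scaled to a common library size) once the rRNA genes and Lars2 were left out, against 9.06 to 21.7 for the 6 lymphocyte markers and at most 1.25 for the 4 neutrophil markers, of which Camp and Ngp were at 0 in all 6 input libraries. In a bulk tissue, fewer cells of a type and less RNA per cell cannot be told apart.

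Only part of the ribosomal protein genes had footprint values at all. The count table of the input libraries held 87 names that fit the rule, and 45 of them were absent from the table with RPF values, which lists only genes with at least 1 read in each of the 12 libraries. Many of them were well measured as messages: 37 of the 45 had a count in every input library, and Rpl9, a large subunit protein near the factor-binding side, had 179 to 613 input counts per library. Rpl5 and Rpl11, which escort the 5S rRNA into the large subunit, were both absent with 75 to 257 and 105 to 376 input counts. So were Rps6, the target of the S6 kinases, Rps27a, which is made as a fusion with ubiquitin, Rpsa, Rpl12 and Rps23. The muscle and testis paralogues Rpl3l and Rpl10l had 0 counts in all 6 input libraries.

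Copies of the coding sequence elsewhere in the genome went with this absence. Each coding sequence was read in windows of 30 bases, about the length of a footprint, and every window was searched for an exact copy outside the gene. RPF reads had been kept only where they mapped to 1 place, with up to 2 mismatches. Among the 41 absent names with a coding sequence, the median share of windows with an exact copy was 100%, and 32 genes had a copy of every window. Among the 42 members the median was 88.9%, and Rpl41, whose product is the shortest ribosomal protein, was the member with a copy of every window. Over all 10597 genes of the table with a coding sequence the median was 0%, and 0.123% of them had a copy of every window.

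For 11 members the whole coding sequence was copied somewhere else except for the windows around 1 base. Each of these 11 genes, 8 of the large subunit and 3 of the small, had 1 unbroken run of 30 windows without a copy, which is the number of windows that contain a given base. They were Rpl3, Rpl6, Rpl7a, Rpl18, Rpl23, Rpl30, Rpl35a, Rpl37, Rps4x, Rps18 and Rps24. In Rpl23 the base was number 253 of the coding sequence, counted from the A of the start codon, and in Rpl30 it was number 96. The windows below show what separates a gene from its copies and are given 5′ to 3′ in the coding direction from GRCm38, with capitals for bases that differ from the copy named for each window. The first pair are windows around that base in Rpl23 and in Rpl30, followed by windows without an exact copy in Rpl34 and Rpl7. The Rps27l window has no copy within 2 mismatches, and the last window, in Rpl7, has exact copies.
Rpl23: gtggtaattcgacaaCgaaagtcatatcga
Rpl30: cgtgctgggctacaaGcagactctgaagat
Rpl34: aatcgttgtgaaagtCttgaaggcacaagc
Rpl7: aaagctggcctttgtcatcagaatTcgagg
Rps27l: atgttttcactggaagagttacaagtgaat
Rpl7, copied: ctgcagctccttcgtcttcgacagatcttc

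The Rpl23 window lies in a coding exon at chr11:97778338-97778367 on the minus strand, and its nearest copy, 1 base different, is in the processed pseudogene Gm9794 at chr6:66875477-66875506. The Rpl30 window is at chr15:34442692-34442721 on the minus strand and differs at 1 base from the pseudogene Gm12191 inside Cnot6, at chr11:49678948-49678977. The Rpl34 window, at chr3:130726897-130726926, differs by 1 base from Rpl34-ps2 at chr13:116154083-116154112. The Rpl7 window without a copy, at chr1:16103168-16103197, differs by 1 base from Gm12174 at chr11:46728144-46728173, and the copied Rpl7 window, at chr1:16102766-16102795, has 4 exact copies, 1 of them in Gm12174 at chr11:46728208-46728237. That of Rps27l is at chr9:66948654-66948683 on the plus strand. A footprint of 30 bases could thus be placed exactly in Rpl23 only around 1 base.

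Footprints of ribosomal protein genes were low relative to their messages, by an amount that differed 483-fold between members. The ratio of the RPF value to the input value, as a geometric mean of the 6 mice, had a median of 0.160 over the 42 members and of 1.01 over all 10607 genes, and 38 of the 42 members lay below the median of all genes. Each library was scaled by its own factor, so a ratio places a gene relative to other genes and is not an absolute occupancy. Large subunit members had a median ratio of 0.108 and small subunit members of 0.422. These ratios ranked the members alike in every mouse, with Spearman correlations of 0.885 to 0.965 over the 42 genes for the 15 pairs of mice. The messages themselves were less unequal, with input values that spanned 25.5-fold between Rpl22l1 and Rpl4, and 42.4-fold per kilobase of exon between Rps15a and Rpl8.

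**Figure D1:**
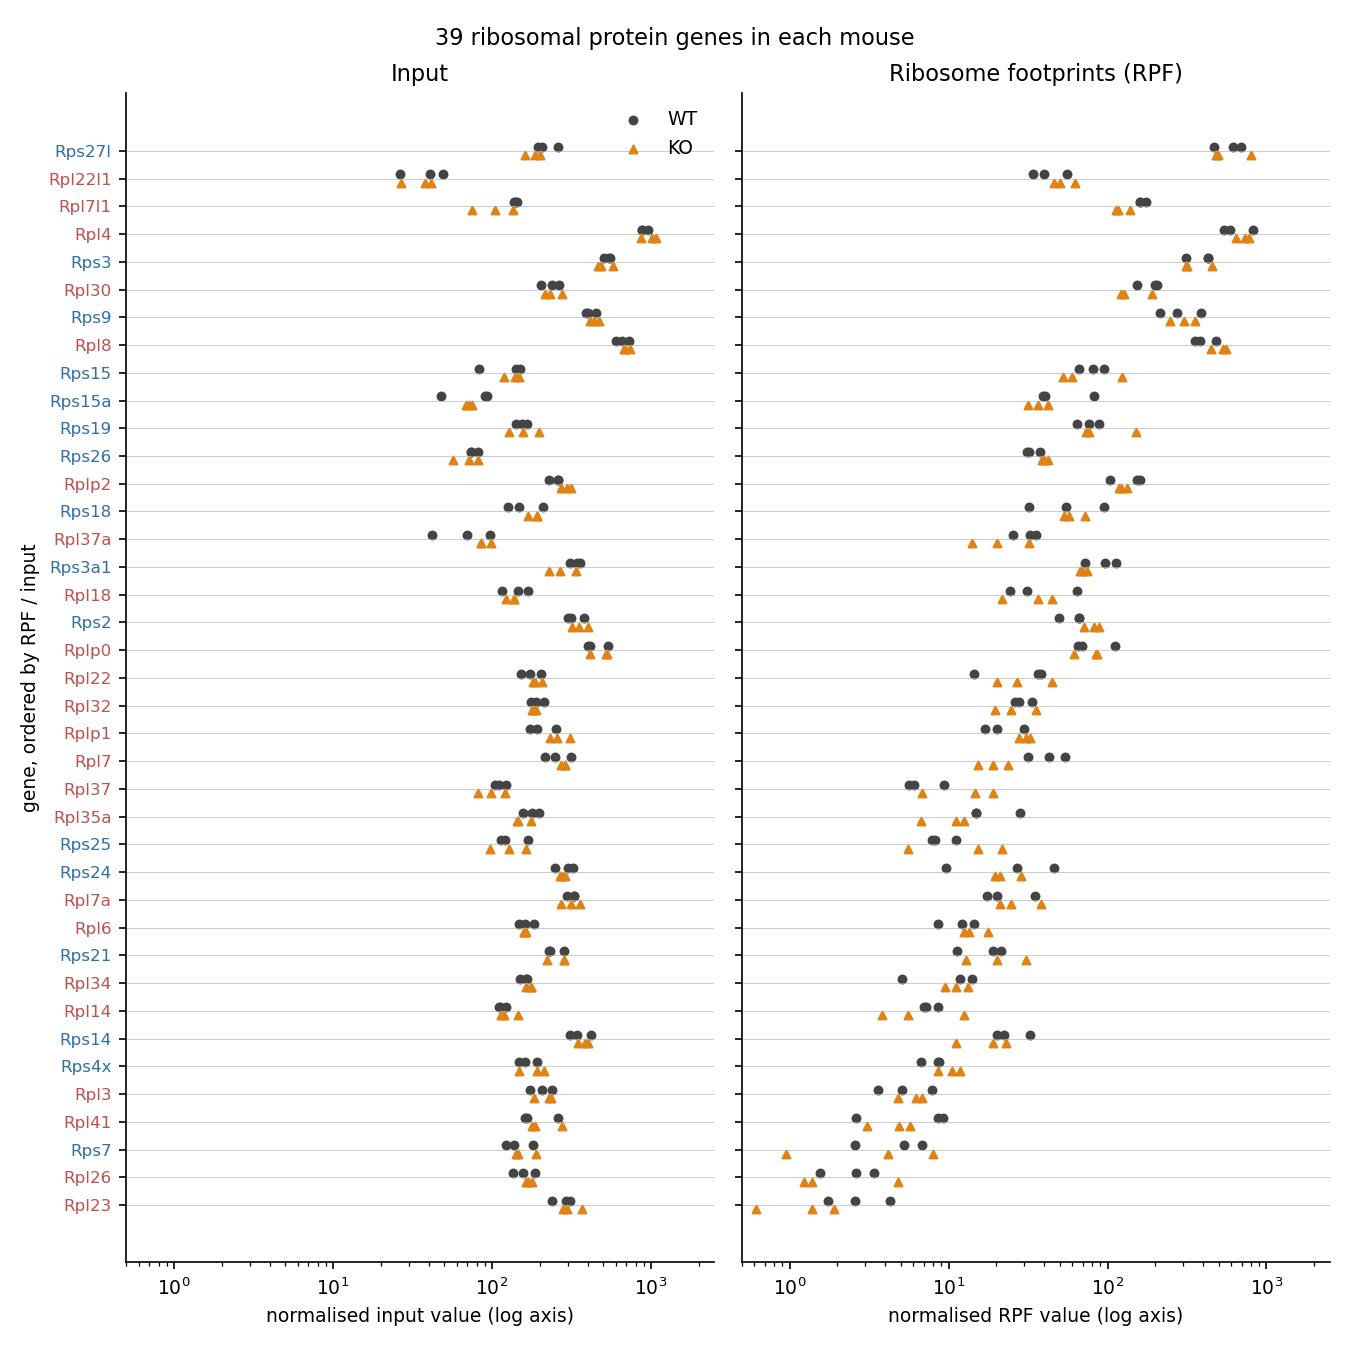
Normalised input values (left) and RPF values (right) of 39 of the 42 members, on log axes, with 1 point for each of the 3 WT (circles) and 3 KO (triangles) mice. Genes run from the lowest RPF to input ratio, Rpl23, to the highest, Rps27l, with large subunit names in red and small subunit names in blue, and the order is set by the RPF panel far more than by the input panel.

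The highest ratio belonged to Rps27l, a paralogue of Rps27 that p53 is known to induce. Its RPF value was 464, 613 and 694 in WT mice 1, 2 and 3 and 799, 497 and 479 in KO mice 1, 2 and 3, against input values of 194, 260 and 206 in WT and 187, 161 and 200 in KO. In all 6 mice the RPF value was more than 2 times the input value, and the WT and KO ranges overlapped in both assays. Rps27l was the one member higher in RPF than in input by the test, with a log2 difference of 1.41 (SE 0.20, limma adjusted p 6.87e-06) in WT. The paralogues Rpl7l1 and Rpl22l1 had ratios of 1.19 and 1.30 and log2 differences of 0.24 (SE 0.19, limma adjusted p 0.285) and 0.16 (SE 0.28, limma adjusted p 0.643). These 3 paralogues were among the 4 members with a ratio over 1.

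At the other end stood Rpl23, a large subunit protein that also binds MDM2. Its input value was 293, 238 and 308 in WT and 298, 368 and 281 in KO, which is above that of Rps27l in 5 of the 6 mice, but its RPF value was 1.74, 4.27 and 2.58 in WT and 1.39, 0.615 and 1.91 in KO. Those RPF values stand for 1 to 5 reads in each library. Rpl26, at the mouth of the exit tunnel, had input values of 136 to 186 and RPF values of 1.23 to 4.78, and Rpl3, next to the peptidyl transferase centre, had 174 to 240 and 3.61 to 7.84. With so few reads 8 members had a mean RPF value under 10 and entered no test of RPF or TE, among them Rpl3, Rpl14, Rpl23, Rpl26, Rpl41, Rps4x and Rps7.

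The ratio was lower where more of the coding sequence was copied. Across the 42 members the Spearman correlation between the ratio and the share of windows with an exact copy was −0.57, and it was −0.51 over the 24 large and −0.61 over the 18 small subunit members. The points share the same 12 libraries, so these are descriptions. The 12 members with at least 100 windows free of copies had a median ratio of 0.675, the 11 with 31 to 99 free windows one of 0.146, and the 19 with at most 30 one of 0.0804. Among the genes with few copied windows were Rpl8 (11.3%) and Rps3 (20%), at ratios of 0.666 and 0.710. Coding length and coding GC content ran less with the ratio, at correlations of 0.0028 and −0.0090 over the 42 members.

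Some members stood away from that relation. Rpl30, a large subunit protein whose windows free of exact copies all lie around 1 base, had RPF values of 204, 198 and 153 in WT and 189, 122 and 126 in KO and a ratio of 0.683. Rpl22l1, with 24 windows free of copies, had a ratio of 1.30, and Rps15a, with 17, one of 0.592. In the other direction Rps14, which lines the mRNA exit channel, had 135 free windows and a ratio of 0.0556, and Rpl22, the partner paralogue of Rpl22l1, had 149 and a ratio of 0.153. These free windows are free of exact copies only. With copies of up to 2 mismatches counted too, Rps14, Rpl30, Rpl22l1 and Rps15a had a copy of 100% of their windows, and Rpl22 of 87.9%. The part that copies play in the ratio of any 1 gene was not tested.

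**Figure D2:**
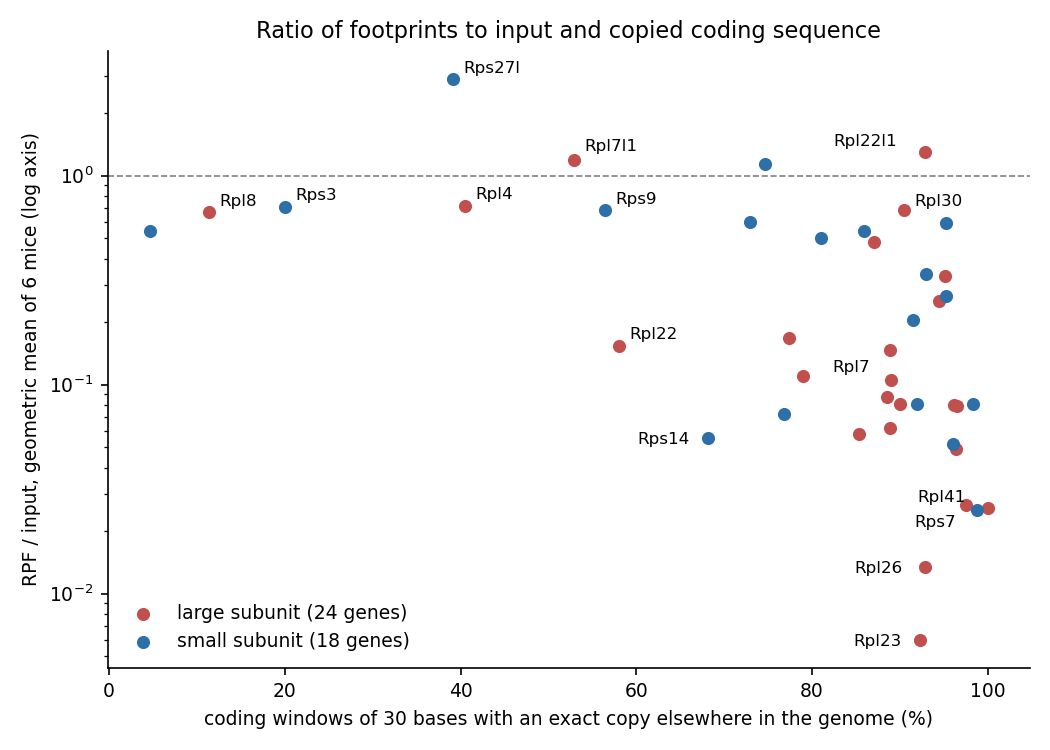
RPF to input ratio of each of the 42 members (geometric mean of 6 mice, log axis) against the percentage of its coding windows of 30 bases that have an exact copy elsewhere in the genome, with large subunit genes in red and small subunit genes in blue. Rpl8 and Rps3, with few copied windows, lie at 0.666 and 0.710, the 17 members below 0.1 have at least 68.2% of windows copied, and Rpl22l1 and Rpl30 lie high at 92.9% and 90.5%.

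By the test, 28 of the 34 members with a mean of at least 10 in both assays differed between RPF and input in WT livers (limma on log2 of the value plus 1, adjusted p under 0.05 over 8994 genes), where 57.5% of all genes did. Of these 27 were lower in RPF (26.5% of all genes) and 1 higher (31% of all genes). The 34 passed partly through their RPF level, so they are not a sample of all ribosomal protein genes. Their median log2 difference was −1.68, against 0.085 for all genes, and in litters 1, 2 and 3 it was −1.91, −1.33 and −2.08. In KO livers 31 of the 34 differed, 30 lower and 1 higher, where 55.4% of all genes did (25.7% lower, 29.7% higher), and the 27 lower genes of WT were lower in KO too. Large subunit members had a median of −2.54 and small subunit members one of −1.08.

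The size and even the direction of this difference depended on what a gene's value was divided by. With the length of coding sequence over exon length taken out, 22 members were lower and 7 higher. With the number of coding windows free of copies in place of the coding length, an alternative chosen after seeing the data, 7 were lower and 21 higher, and the median log2 difference became 1.16. Both settings shifted the RPF values of all genes, so the shares of all genes given for the main fit do not apply to these counts. The counts are thus not set against a share of all genes. Rpl6 turned from −3.72 (SE 0.23) to 1.25 and Rpl7a from −3.72 (SE 0.24) to 0.44 under that setting, while Rps14 kept its direction. The gap of −1.46 between the large and the small subunit medians became −0.57 with coding length, −0.62 with copy-free windows and 0.18 among the 16 members with a mean of at least 50 in both assays.

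By role, the small subunit proteins that face the mRNA channel had ratios that reached from Rps14 to Rps3. Rps3, at the entry side, differed between RPF and input in WT by a log2 of −0.47 (SE 0.17, limma adjusted p 0.0206), Rps26, which contacts the message ahead of the start codon, by −1.16 (SE 0.21, limma adjusted p 0.000102) and Rps2, at the entry side, by −2.43 (SE 0.17, limma adjusted p 1.62e-09). All 5 tested members of that list were lower in RPF, where 26.5% of all genes were, and Rps28 and Rpsa had no RPF value. Among the small subunit proteins at the decoding centre or facing tRNA, Rps25 and Rps18 were lower in RPF, and Rps15, at −0.59 (SE 0.29), did not pass.

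In the large subunit, members of 1 structure also differed in their ratio. The stalk, which recruits translation factors, is built on Rplp0 with Rplp1 and Rplp2 in equal copies, and the ratios were 0.167, 0.110 and 0.482 in that order. Rplp2 had RPF values of 159, 154 and 104 in WT where Rplp1 had 20.0, 29.9 and 17.0. Their input values in WT were 259, 229 and 261 for Rplp2 and 172, 191 and 253 for Rplp1. Per length the order depended on the assay: the mean input level per kilobase of exon was 131 for Rplp2 and 473 for Rplp1, while the mean RPF level per kilobase of coding sequence was 382 for Rplp2 and 76.8 for Rplp1. Rplp2 had copies of 87% of its windows and Rplp1 of 78.9%. Rpl4, whose loop lines the exit tunnel, had the highest RPF value of the members in the 6-mouse mean, 685, with 591, 823 and 542 in WT and 774, 642 and 737 in KO, and a log2 difference from input of −0.50 (SE 0.15, limma adjusted p 0.0100).

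Runs of pyrimidines near the annotated start were looked for in the promoter table of RefSeq on GRCm38.p6, in which 32 of the 42 members had a sequence. A run of at least 7 pyrimidines that begins with C, on the coding strand within 25 bases of the annotated start, was found in 18 of the 32 members (56.2%) and in 25.6% of the 27025 genes of the table. It was found in 8 of 17 large and 10 of 15 small subunit members. The median RPF to input ratio was 0.411 in the 18 with the run and 0.120 in the 14 without it. The run could lie on either side of the start, whereas a TOP tract begins the message, so this is not a split by TOP tract. The 30 bases centred on the start, with the run in capitals, are shown for Rpl4 and Rplp2, which have it, and for Rps2 and Rpl7l1, in which these letters were not found. The run of Rpl4 has 13 letters and begins upstream of the window, so that its opening C is not shown. It also ends before the centre of the window, upstream of the annotated start.
Rpl4: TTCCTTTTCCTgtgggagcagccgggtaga
Rplp2: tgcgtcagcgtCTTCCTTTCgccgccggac
Rps2: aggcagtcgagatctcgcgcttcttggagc
Rpl7l1: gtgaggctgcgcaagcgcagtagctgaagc

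The Rpl4 and Rplp2 windows are at chr9:64173372-64173401 and chr7:141447636-141447665 on the plus strand. Those of Rps2 and Rpl7l1 are at chr17:24720048-24720077 on the plus strand and chr17:46782642-46782671 on the minus strand. Among 14 tested genes of a list of other TOP messages, such as elongation factors, 10 were lower in RPF than in input in WT (26.5% of all genes) and 1 was higher (31% of all genes), and Naca, a subunit of the nascent chain complex, had the smallest p. Of the ribosome genes that the naming rule does not cover, Rack1 and Rpl36al were both lower, by −0.42 (SE 0.15, limma adjusted p 0.0191) and −1.15 (SE 0.47, limma adjusted p 0.0435).

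Whether loss of METTL5 changes the level of ribosomal protein messages was asked of the input libraries. None of the 42 members passed in edgeR's quasi-likelihood test with Benjamini-Hochberg adjustment, and 0% of the 10057 genes tested did. At an unadjusted p under 0.05, where 3.46% of all genes lay (1.97% higher, 1.49% lower), there was 1 member, Rplp1, and DESeq2 also gave 0 adjusted calls among the members. Rplp1 had input values of 172, 191 and 253 in WT and 310, 258 and 232 in KO, a log2 difference of 0.40 (SE 0.18, edgeR adjusted p 0.999), higher in KO in 2 of 3 litters. Its partner Rplp2 had 259, 229 and 261 in WT and 313, 270 and 296 in KO, with no overlap, and differed by 0.26 (SE 0.15), while Rpl7l1, a paralogue of Rpl7 known from ribosome assembly, differed by −0.38 (SE 0.21) with no overlap. Groups of 3 did not overlap in 1 member in each direction, where they did not in 4.23% of all genes in the higher and 4.34% in the lower direction.

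Small differences of the messages went to both sides, 27 of the 42 higher and 15 lower in KO, where 50.0% of all genes were higher. They ranged from −0.38 to 0.40 with standard errors of 0.13 to 0.31. The median was 0.12 in the large and 0.089 in the small subunit, against −0.00037 over all genes, and in litters 1, 2 and 3 the median of all members was 0.14, 0.15 and −0.13. Of the cell types checked, the sum of the 4 stellate markers was apart between genotypes, at 233 to 245 CPM in WT and 257 to 347 in KO. Of these 4 markers 3 were higher in KO, with log2 differences from −0.19 to 0.70, and 0 passed. The part of stellate cells in these values was not tested. Of the 36 absent names tested in input 0 passed, and 25 were higher in KO, with a median of 0.13. Among them 2, Rps16 and Rps12, had an unadjusted p under 0.05, where 3.46% of all genes lay. Rps16, whose tail reaches the P site, differed by 0.48 (SE 0.16, edgeR adjusted p 0.999) and was higher in KO in 3 of 3 litters. The other genes on its list, of small subunit proteins at the decoding centre or facing tRNA, differed by −0.013 (SE 0.22) for Rps25, 0.14 (SE 0.21) for Rps15, 0.21 (SE 0.19) for Rps18 and 0.30 (SE 0.23) for Rps23. Rpl5 and Rpl11 of the 5S particle differed by 0.037 (SE 0.17) and 0.20 (SE 0.17), Rps6 by 0.12 (SE 0.18), Rps27a by 0.25 (SE 0.17) and Rpl12 of the stalk base by −0.035 (SE 0.14).

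The same question was then put to the footprints, and here 1 of the 34 members tested passed, where 0.489% of the 8994 genes did (0.322% lower, 0.167% higher). It was Rpl7 (chr1:16101295-16104662, minus strand), a protein of the large subunit. Its RPF value was 54.0, 42.7 and 31.5 in WT mice 1, 2 and 3 and 23.6, 19.1 and 15.3 in KO mice 1, 2 and 3. Every KO value was below every WT value, and each KO mouse was below its WT littermate. These values rest on 62, 50 and 61 reads in WT and 34, 31 and 16 in KO. The log2 change was −1.09 (SE 0.22, limma adjusted p 0.0246), with −1.16, −1.12 and −0.99 in the 3 litters.

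Input values of Rpl7 were 215, 251 and 315 in WT and 289, 287 and 270 in KO, which overlap, with a log2 difference of 0.14 (SE 0.16). The fall in RPF did not pass when WT mouse 1 (limma adjusted p 0.131), WT mouse 2 (0.177), KO mouse 2 (0.123) or KO mouse 3 (0.185) was left out. It did not pass either when the trend with coding GC content was removed from each library (−0.96, limma adjusted p 0.0744), and over 14 alternatives the adjusted p ran from 0.00543 to 0.185. A slope on coding GC was taken of each gene's log2 RPF deviation from its mean over all mice, not of its RPF level. Per 10 percentage points it was −0.17, −0.14 and −0.080 in WT and −0.0072, 0.12 and 0.28 in KO. This relative slope did not overlap between the genotypes. The coding GC content of Rpl7 was 47.4% against a median of 52.7% over all genes. Exact copies of Rpl7 filled 89% of its windows, leaving 86 in 3 runs. With copies of up to 2 mismatches counted too, 100% of its windows had a copy.

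**Figure D3:**
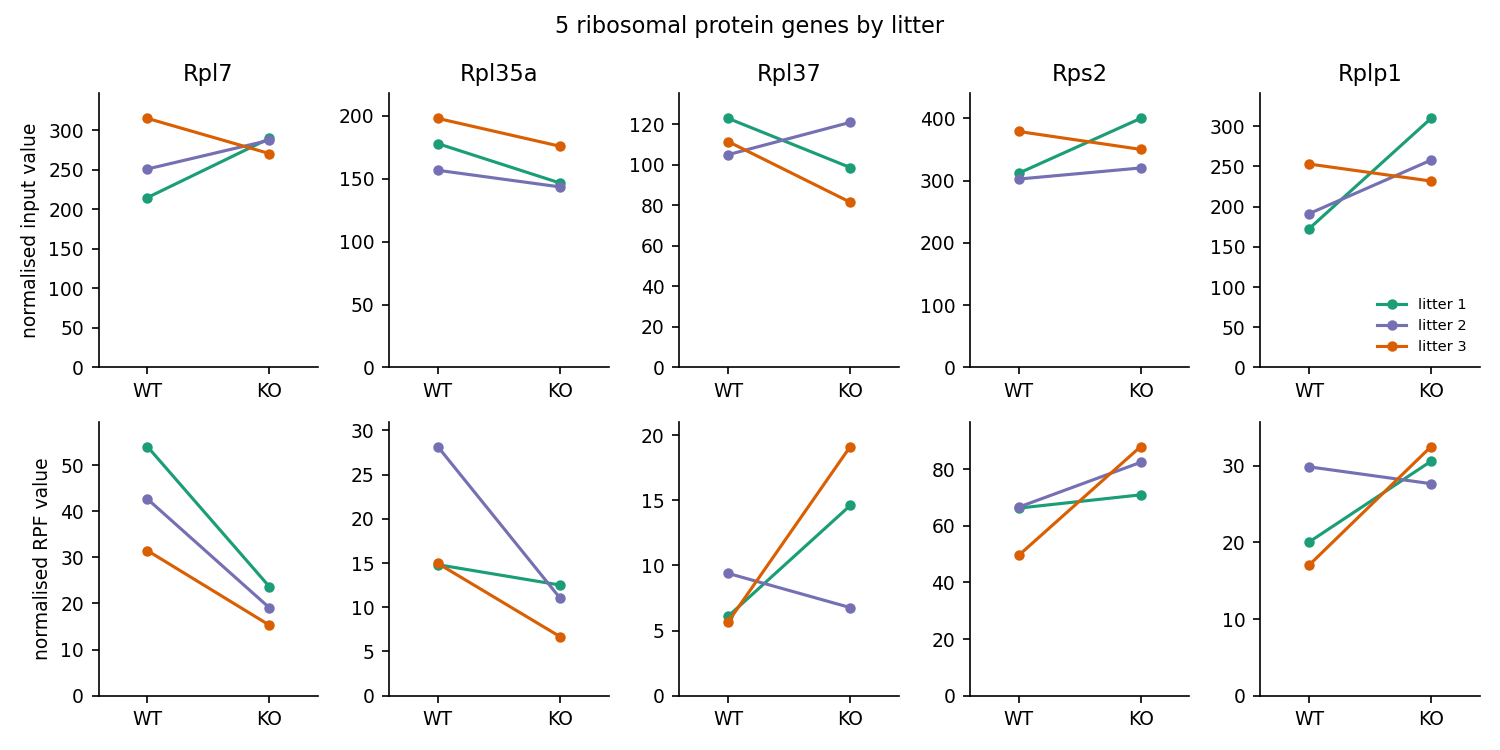
Normalised input (top) and RPF (bottom) values of Rpl7, Rpl35a, Rpl37, Rps2 and Rplp1 in WT and KO mice, each line joining the 2 littermates of 1 litter, on axes that begin at 0. The RPF lines of Rpl7 go down in all 3 litters while its input line goes down in 1 of 3, and the RPF lines of Rpl37 and Rplp1 go up in 2 litters and down in 1.

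The other members did not pass in RPF, and the next smallest limma adjusted p was 0.160. It belonged to Rpl35a, a large subunit protein whose mutation is a cause of Diamond-Blackfan anaemia, with RPF values of 14.8, 28.2 and 15.0 in WT and 12.5, 11.1 and 6.69 in KO, a log2 difference of −0.85 (SE 0.27) and no overlap. Rpl7l1 had 160, 160 and 175 in WT and 116, 138 and 114 in KO, also without overlap, at −0.43 (SE 0.19, limma adjusted p 0.325), but its input values were lower in KO as well. In the higher direction, Rps2 had 66.2, 66.5 and 49.5 in WT and 70.9, 82.4 and 87.9 in KO, with no overlap, at 0.41 (SE 0.17, limma adjusted p 0.304). Rpl37, a zinc-binding protein of the large subunit, had 6.10, 9.38 and 5.67 in WT and 14.6, 6.76 and 19.1 in KO, which overlap, at 0.77 (SE 0.32, limma adjusted p 0.302). Rpl8, which lies at the peptidyl transferase centre, differed by 0.34 (SE 0.14, limma adjusted p 0.308) with overlap.

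At an unadjusted p under 0.05 there were 7 of 34 members, 4 lower and 3 higher, where 13.4% of all genes lay (7.99% lower, 5.4% higher). Groups did not overlap in 2 members in the higher and 3 in the lower direction, against 6.97% and 12.9% of all genes. The median RPF difference was 0.012 in the large and 0.11 in the small subunit, −0.033 over all genes, and the litters differed in sign: the median of all members was 0.31, −0.40 and −0.017 in litters 1, 2 and 3. By library, members lay above their 6-mouse mean in WT mouse 2 and KO mouse 1, with median log2 deviations of 0.24 and 0.26, and below it in WT mouse 3 and KO mouse 2, with −0.20 and −0.21. The SD of the median over the 3 litters was 0.35, larger than the median itself, 0.079. The large and small subunit medians had the same sign in 5 of the 6 RPF libraries, all but WT mouse 1.

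**Figure D4:**
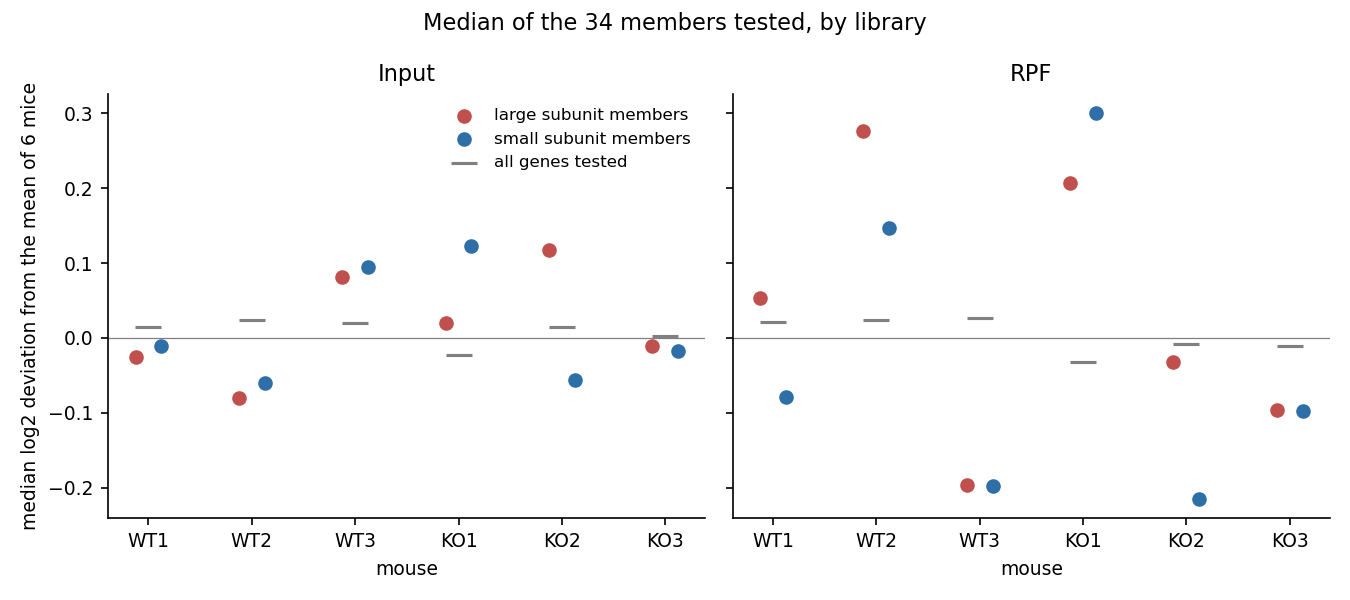
Median log2 deviation of the 34 tested members from their mean over the 6 mice, for large (red) and small (blue) subunit members and all genes tested (grey bars), in input (left) and RPF (right). In RPF, WT mouse 2 and KO mouse 1 are high and WT mouse 3 is low for both subunits, and the input medians lie nearer 0.

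Translational efficiency (TE) was tested as the change in RPF less the change in input, on the log2 scale. None of the 34 members passed in limma, and 0% of the 8994 genes did. At an unadjusted p under 0.05 there were 3 members, 2 lower and 1 higher, where 4.7% of all genes lay (2.61% lower, 2.09% higher), and the recovered reads in edgeR also gave 0 adjusted calls among members. Rpl7 had the smallest p of the members, with a TE difference of −1.23 (SE 0.31, limma adjusted p 0.998). Rpl37a, a small zinc-binding protein of the large subunit, differed by −0.97 (SE 0.43) and Rpl37 by 0.96 (SE 0.45), and Rps26 by 0.38 (SE 0.29). TE values did not overlap between groups in Rpl7 and Rpl37a in the lower and Rps26 in the higher direction, against 7.34% and 6.08% of all genes. The median TE difference was −0.016 in the large and 0.098 in the small subunit, −0.011 over all genes, and in litters 1, 2 and 3 the median of all members was 0.031, −0.57 and 0.19.

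**Figure D5:**
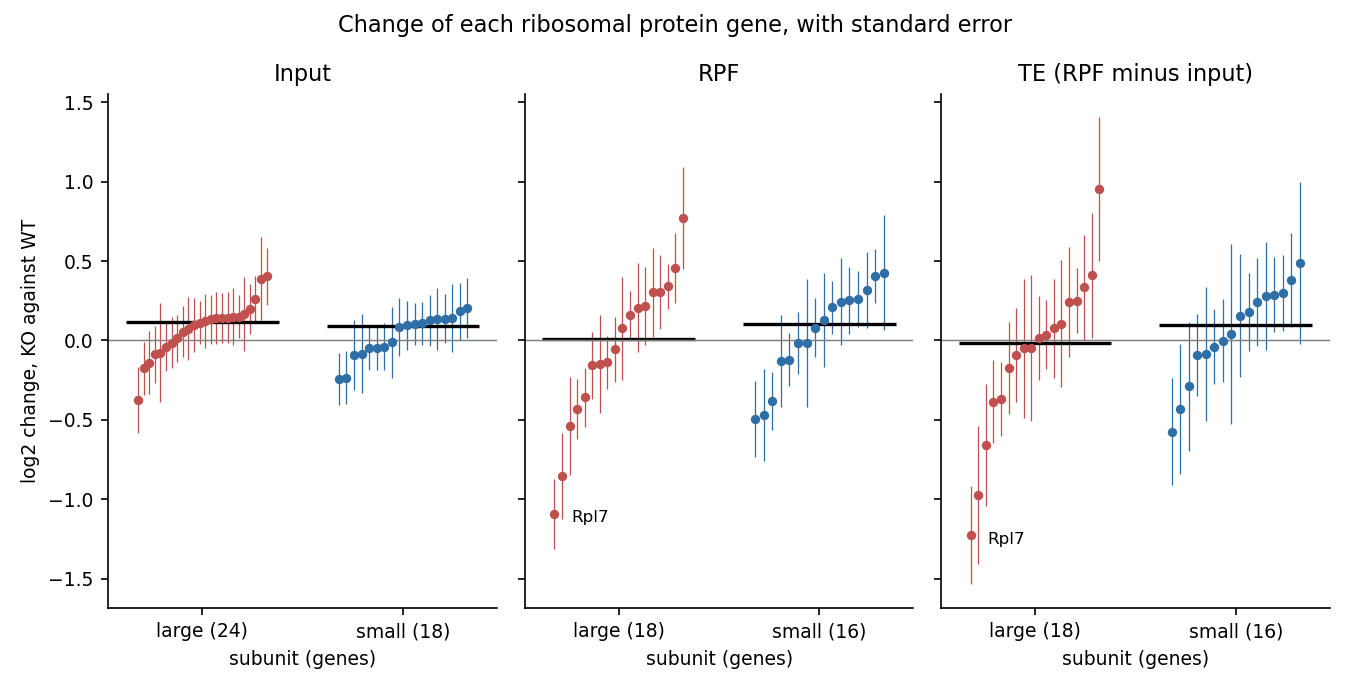
Log2 difference between KO and WT in input, RPF and TE for each member (points) with its standard error (bars), sorted within the large (red) and small (blue) subunit, with the median as a black line. Rpl7 is the lowest point in RPF and in TE, and the other points lie on both sides of 0 in both subunits.

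The genes that act on ribosomal proteins gave 1 call in RPF, where 0.489% of all genes passed. Among 12 genes of mTORC1 and LARP1 control, Eif4ebp2, a repressor of cap-dependent initiation, was higher in KO by 0.93 (SE 0.16, limma adjusted p 0.00931), with RPF values of 47.9, 74.2 and 68.1 in WT and 114, 121 and 124 in KO and no overlap. Its input log2 difference was 0.067 (SE 0.14), and its TE difference of 0.90 (SE 0.23, limma adjusted p 0.998) did not pass. Larp1 differed by 0.30 (SE 0.22) in RPF. Of the other TOP genes, 16 tested in input and 14 in RPF and TE, 0 passed between genotypes, and so did 0 of 9 chaperones of ribosomal proteins. At an unadjusted p under 0.05 there were 3 of the TOP genes in RPF, 0 in input and TE, and 0 of the chaperones. Of the 12 mTORC1 and LARP1 genes there were 2 in RPF, Eif4ebp2 and, lower in KO, Rheb, with 1 in TE and 0 in input. Of all genes, 13.4% lay there in RPF, 3.46% in input and 4.7% in TE. In the TOP and chaperone lists the smallest RPF p belonged to Npm1, a nucleolar protein, and Tsr2, the carrier of Rps26. The TOP list had a median RPF difference of 0.071 and a median TE difference of −0.076.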

How the data were processed

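Members and gene lists were chosen with earlier results of these data known. The deposited input counts are read pairs per gene: per the submitters' notes and the paper's methods, the authors used BBDuk for trimming and STAR 2.7.3a for alignment to mm10, kept unique alignments and counted exons on the sense strand with featureCounts (1.6.0 in the notes, 2.0.3 in the file header). For RPF, the authors kept read 1 of a footprint's length, removed rRNA reads and mapped in RiboToolkit with up to 2 mismatches and 1 location, without removing duplicates. Footprints had been made with MNase. The second deposited table holds a normalized signal: reads divided by a factor per library, with no division by gene length although its name says RPKM, and its input values are the deposited counts divided by those factors. It also holds the authors' own log2 fold changes and p-values for TE, which were not used. Columns of no sample numbered 0. Some members are counted among the 42 but their own values are not reported here.

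Input counts were tested with edgeR 4.0.16 (quasi-likelihood, TMM, filterByExpr), and RPF, TE and RPF against input with limma 3.58.1 (trend, robust) on log2(value + 1) where the mean was at least 10 in both assays, in R 4.3.3, with Benjamini-Hochberg adjustment over all genes at 0.05. The pseudocount understates changes of low genes. Expected units differed from those found, so the limma test was used for the table values and edgeR on the recovered reads became an alternative. RPF, TE and RPF against input share libraries. Litter was left out of the fit because the study's methods do not use it, and the fit with a litter block was an alternative. The paper speaks of littermate controls, and the sample titles give only a mouse number, so WT and KO mice of 1 number were taken as littermates. Deviations of mice of 1 number correlated at 0.0816 to 0.127 in input and 0.144 to 0.242 in RPF. Those of other pairs correlated at −0.117 to 0.0169 and −0.239 to 0.0813.

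Named genes were the members of the role lists, the 3 members with the smallest p in each direction of each comparison, and the gene with the smallest p in each other list. Others, such as Rpl23, Rpl30 and Rps15a for their ratios, Rpl9, and Rack1, Rpl36al and Larp1, were chosen after their values were seen. Coding windows were searched with BLAST+ 2.17.0 in GRCm38, and pseudogene names come from GENCODE. Input libraries had 8326325 to 11825643 counts, of which 2077408 to 4745069 lay outside the 18S gene, mitochondrial rRNA genes and Lars2. DESeq2 1.42.0 was an alternative for input. In tests on simulated data, 4-fold changes were recovered in 93.5% of cases for input, 96.5% for RPF and 86% for TE, and 2-fold changes in 41.5%, 34.5% and 2.5%. The 200 changed genes were drawn from all genes tested, and every gene was given the same spread of counts between mice. Recovery among the members was not measured. Figures were drawn with matplotlib 3.10.9.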

Additional observations from a re-analysis of the deposited data

Results flagged for a closer look

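Input reads also fell on genes named as ribosomal protein pseudogenes, which entered no comparison. Of 300 such names 178 had counts, and the sum per input library was lowest in WT mouse 2, at 107, and highest in KO mouse 1, at 375, the library with the most reads. These sums came to 1.67% to 2.63% of the counts on the members.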

How the results depend on the processing

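Of 518 alternative values of 36 results, 493 gave the same answer (same sign and call, a value within 1 SD, or a count within 1.5 times), 13 moved, 5 became weaker, 4 stronger and 3 reversed. For RPF against input, the median of −1.68 became −2.54 without the filter on low values, −0.65 where input and RPF means both reached 50 and 1.16 with copy-free windows taken out (chosen after seeing the data), and the 28 calls became 12 with a mean of at least 50, where 16 members were tested. The gap between subunits, −1.46, became 0.18 with a mean of at least 50, −0.57 with coding length and −0.62 with copy-free windows. Under copy-free windows Rpl6 reversed to 1.25 and Rpl7a to 0.44. Rpl22l1, at 0.16 and not called, ran from −0.048 without WT mouse 3 to 0.51 without WT mouse 1 and was called at 1.03 with coding length and at 4.79 with copy-free windows, and Rpl7l1, at 0.24 and not called, was called at 0.91 and 1.94 under these 2 settings. The 1 call in RPF became 0 with a mean of at least 50, under which Rpl7 was not tested, and 0 with the GC trend removed, the cause of which was not tested. Leaving out 1 mouse at a time gave 24 to 28 calls for RPF against input with medians of −1.996 to −1.33, 0 to 1 calls in RPF with medians of −0.07 to 0.27, and 0 calls in input and in TE.

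With the litter as a replicate block, 0 members passed in input, 1 in RPF (Rpl7, −1.09, limma adjusted p 0.00543) and 0 in TE, so the pairing changed no call among members, while over all genes RPF calls went from 44 to 236. With 1 to 5 reads behind an RPF value of Rpl23, and 12 members under 10 reads in some library, changes in the lowest members were not detectable at this depth.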
